A study of Rattus norvegicus with 21 samples.

Results

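Serine, folate and cystathionine metabolism was followed through 9 genes: Phgdh, Psat1 and Psph of serine synthesis, Shmt1 and Shmt2 of the serine to glycine step, Aldh1l1 and Mthfd1 of folate metabolism, Cbs of cystathionine synthesis, and the amino acid carrier Slc7a10. The genes were chosen by name, as members of connected pathways, from 14217 genes that had a probe set carrying their symbol alone. Each of the 9 had exactly 1 such probe set, so its value is called a level here, and no second probe set was at hand to check it. RNA of rat forebrain astrocytes was measured on 21 Affymetrix rat genome expression arrays, 3 to a group, and each value is the log2 of a deposited intensity. The labels call the 3 samples of a group biological replicates without saying whether they came from separate animals or cultures, so each p-value measures only the spread between these samples.

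All cells came from Sprague Dawley rats, and no allele or transgene is named for any group. Fresh P1 and fresh P7 cells were taken at postnatal day 1 or 7 by immunopanning, in which cells stick to a dish coated with an antibody, here against the integrin ITGB5, and were lysed at once. HBEGF P1 and HBEGF P7 cultures were panned cells kept for 7 days without serum in medium holding HBEGF, a growth factor that binds the EGF receptor, at 5 ng/ml. Serum P7 cultures were panned P7 cells kept for 7 days in 10% foetal calf serum. Withdrawn P7 cultures had the same 7 days of serum, were washed 3 times, and then spent 7 more days in HBEGF medium. MD cultures were prepared from P1 forebrain by the method of McCarthy and de Vellis, without panning, and were kept in 10% serum for 7 days. The HBEGF P7 group was taken as P7 from its titles, although a further label of these samples reads P1.

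Astrocytes make L-serine from a glycolytic intermediate: Phgdh oxidises 3-phosphoglycerate, Psat1 adds the amino group and Psph removes the phosphate. Shmt1 in the cytosol and Shmt2 in mitochondria turn serine into glycine and pass a carbon unit to folate, which Mthfd1 interconverts and Aldh1l1 releases as carbon dioxide. Cbs joins serine to homocysteine to make cystathionine, and Slc7a10, also called Asc-1, carries small neutral amino acids such as serine and glycine across the cell membrane. Aldh1l1 is widely used as an astrocyte marker.

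The sequences just before the annotated starts of 5 of the genes are shown because the levels of these genes differed most between groups or, for the Shmt pair, moved together in some comparisons. They are 250 bases long, end at the base before the start of the gene, run 5′ to 3′ on the gene's own strand, and come from RefSeq on the build GRCr8. The table matched 8 of the 9 genes; Mthfd1 was the other. Capitals mark matches, on either strand, to a CCAAT box (CCAAT), a GC box (GGGCGG), an E-box (CACGTG) or an ATF4 composite element (TGATGNAA). None of the marked matches overlap.
Cbs, chr20:9733926-9734175 (minus strand): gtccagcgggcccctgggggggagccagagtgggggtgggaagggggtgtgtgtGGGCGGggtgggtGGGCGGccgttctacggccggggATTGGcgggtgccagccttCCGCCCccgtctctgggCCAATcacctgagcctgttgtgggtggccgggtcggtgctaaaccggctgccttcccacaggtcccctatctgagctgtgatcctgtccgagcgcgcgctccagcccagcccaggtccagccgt
Slc7a10, chr1:96965872-96966121 (plus strand): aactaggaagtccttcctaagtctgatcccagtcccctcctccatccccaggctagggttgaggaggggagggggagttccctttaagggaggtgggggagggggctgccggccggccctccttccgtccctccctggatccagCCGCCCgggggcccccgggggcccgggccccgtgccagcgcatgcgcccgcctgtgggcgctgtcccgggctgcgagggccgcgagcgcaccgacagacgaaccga
Aldh1l1, chr4:124616970-124617219 (plus strand): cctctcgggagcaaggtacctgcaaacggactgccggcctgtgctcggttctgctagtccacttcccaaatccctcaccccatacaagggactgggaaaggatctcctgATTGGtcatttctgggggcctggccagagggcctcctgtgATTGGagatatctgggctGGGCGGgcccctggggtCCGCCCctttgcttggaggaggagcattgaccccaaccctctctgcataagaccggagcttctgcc
Shmt1, chr10:45990342-45990591 (minus strand): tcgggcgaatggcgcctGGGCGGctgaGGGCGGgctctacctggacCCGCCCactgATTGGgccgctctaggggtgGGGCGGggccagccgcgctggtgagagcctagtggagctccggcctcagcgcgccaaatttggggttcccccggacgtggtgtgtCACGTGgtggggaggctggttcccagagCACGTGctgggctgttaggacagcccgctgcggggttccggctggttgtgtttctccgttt
Shmt2, chr7:65249568-65249817 (minus strand): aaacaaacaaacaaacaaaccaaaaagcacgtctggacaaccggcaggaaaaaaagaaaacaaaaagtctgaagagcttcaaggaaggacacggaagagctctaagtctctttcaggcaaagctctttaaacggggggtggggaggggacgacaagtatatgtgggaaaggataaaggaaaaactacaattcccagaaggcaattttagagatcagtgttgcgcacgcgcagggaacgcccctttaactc

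A CCAAT box was found in 5 of the 8 promoters, against 34.0% of all 33469 promoters of this length. A GC box was found in 6 of the 8, against 30.5%. The E-box occurred in 1 of the 8, Shmt1, which held 2 of them, 89 and 61 bases before its start, against 5.6% of all promoters. The ATF4 element was in 0 of the 8, against 3.4%. The share of G and C was 71.2% for Cbs, 72.4% for Slc7a10, 60.8% for Aldh1l1, 68.8% for Shmt1 and 45.2% for Shmt2, against a median of 51.2% over all promoters. The Cbs window held 3 GC boxes and 2 CCAAT boxes, the Aldh1l1 window 2 of each, and the Shmt2 window none of the 4 motifs. A match is a description of letters and shows no binding.

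No pair of arrays held identical values. Lists of marker genes were used to check the cells. The mean level of 14 astrocyte markers, a list without Aldh1l1, was 10.46 to 10.64 on the MD arrays and 11.53 to 12.99 on all others. The 13 fibroblast and meningeal markers averaged 11.61 to 12.88 in serum P7 cultures and 12.22 to 12.54 in withdrawn cultures, against 9.21 to 10.07 in fresh P7 cells, 9.32 to 11.42 in HBEGF P7 cultures and 8.43 to 8.68 in MD cultures. The 14 microglia and macrophage markers averaged 7.14 to 8.70 in withdrawn cultures and 5.55 to 6.12 in serum P7 cultures. The 17 measured proliferation genes, of 18 listed, averaged 11.39 to 11.72 in MD cultures, 8.71 to 8.82 in withdrawn cultures and 9.38 to 10.18 in HBEGF P1 cultures. In RNA from a whole dish, fewer cells of a type and less RNA per cell cannot be told apart.

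**Figure D1:**
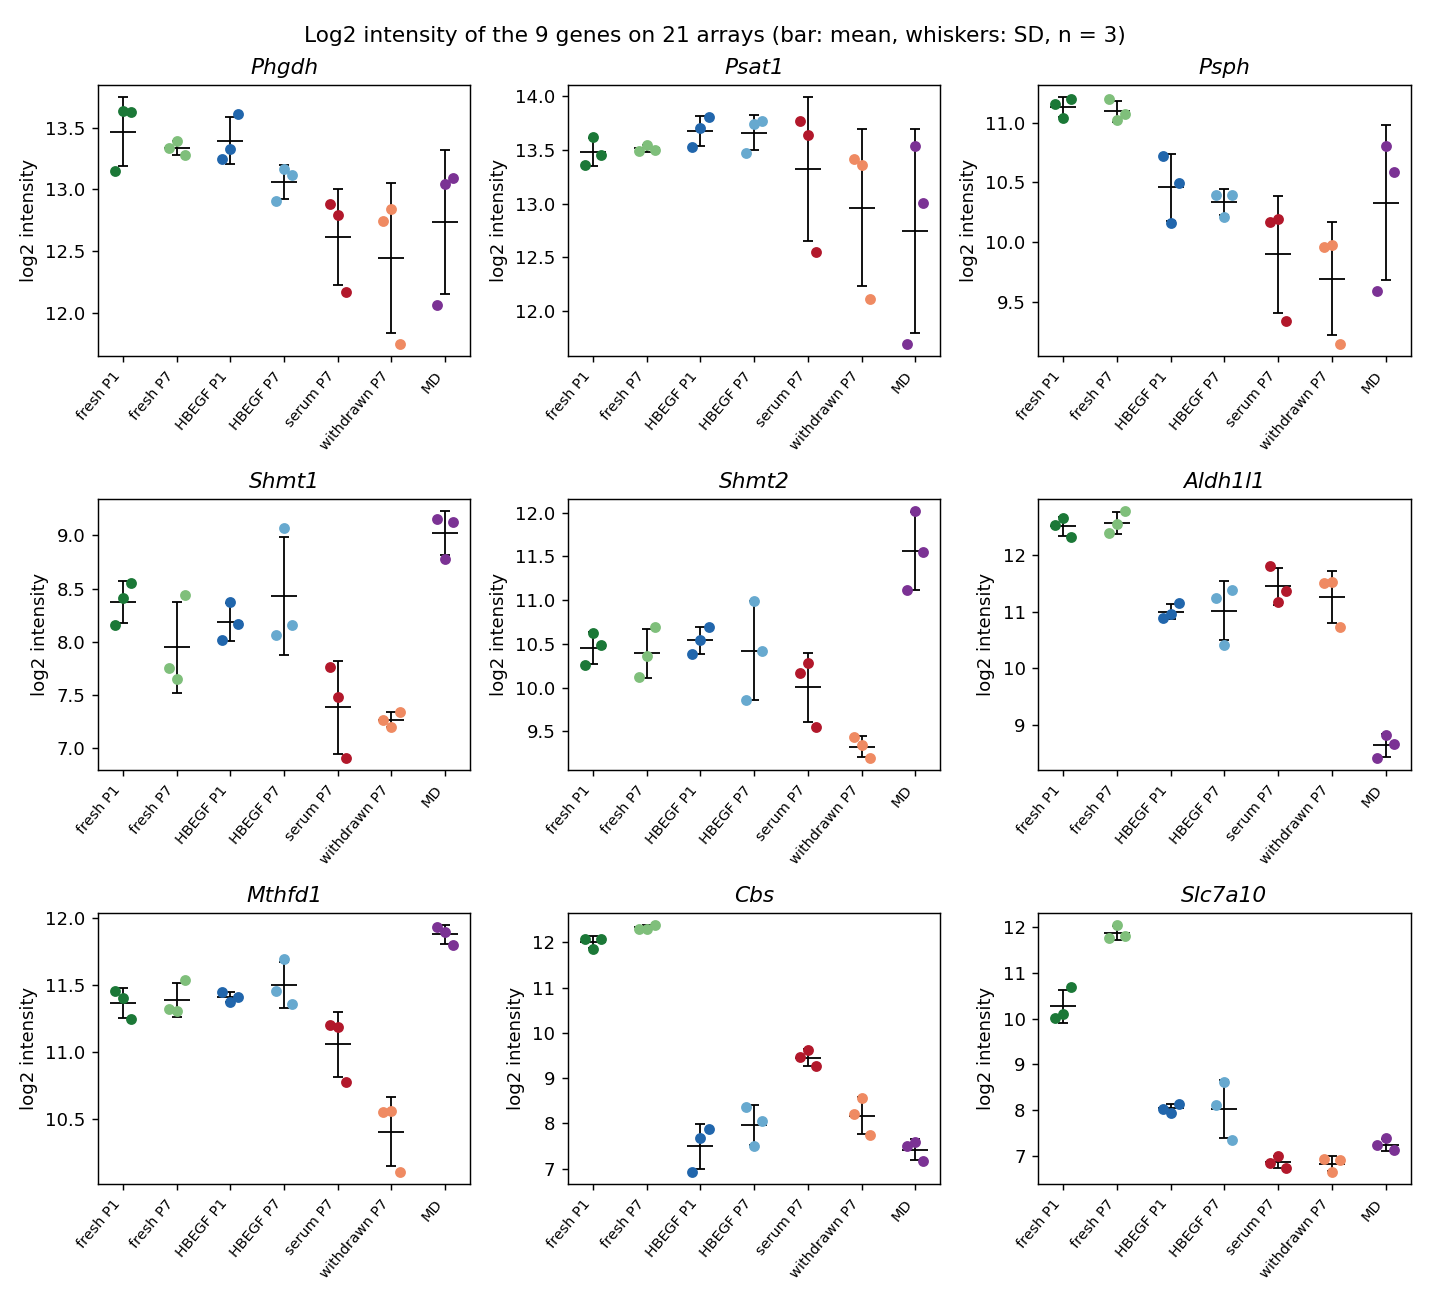
Log2 intensity of each of the 9 genes (vertical axis) on each of the 21 arrays, by group (horizontal axis), with 1 point per array, a bar at the group mean and whiskers of 1 SD. Cbs and Slc7a10 spanned 4.91 and 5.03 log2 units between their highest and lowest group means, while Psat1 spanned 0.93.

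Differences between groups were tested with limma in 1 model of all 7 groups, and a gene was called when its Benjamini-Hochberg adjusted p over all probe sets was under 0.05 and its log2 change was at least 1 in size, a change of at least 2-fold. Beside each count, the percentage in brackets is the share of all 14217 genes called in the same direction. From fresh P1 to fresh P7 cells 1 of the 9 genes rose (1.37% of all genes). In HBEGF cultures 3 of the 9 fell at P1 (4.49% of all genes) and 3 of the 9 at P7 (5.51%), and between HBEGF P7 and HBEGF P1 cultures limma called 0 of the 9 (1.11% of all genes in either direction), with 0 at an unadjusted p under 0.05. Against fresh P1 cells, 1 of the 9 was higher in MD cultures (10.1%) and 3 were lower (9.43%). Against HBEGF P1 cultures, 1 was higher in MD cultures (8.81%) and 1 lower (9.57%). For the panned P7 cells, 4 of the 9 were lower in serum than in fresh cells (9.04%), while against HBEGF P7 cultures 1 was higher in serum (4.83%) and 2 lower (4.47%). Withdrawn cultures had 1 of the 9 lower than serum P7 cultures (2.26%), 4 lower than HBEGF P7 cultures (5.42%) and 5 lower than fresh P7 cells (11.1%). Serum P7 cultures had 2 of the 9 higher than MD cultures (7.58%) and 2 lower (6.37%). Comparisons that share a group, such as the 3 against fresh P7 cells, are not independent of each other.

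**Figure D2:**
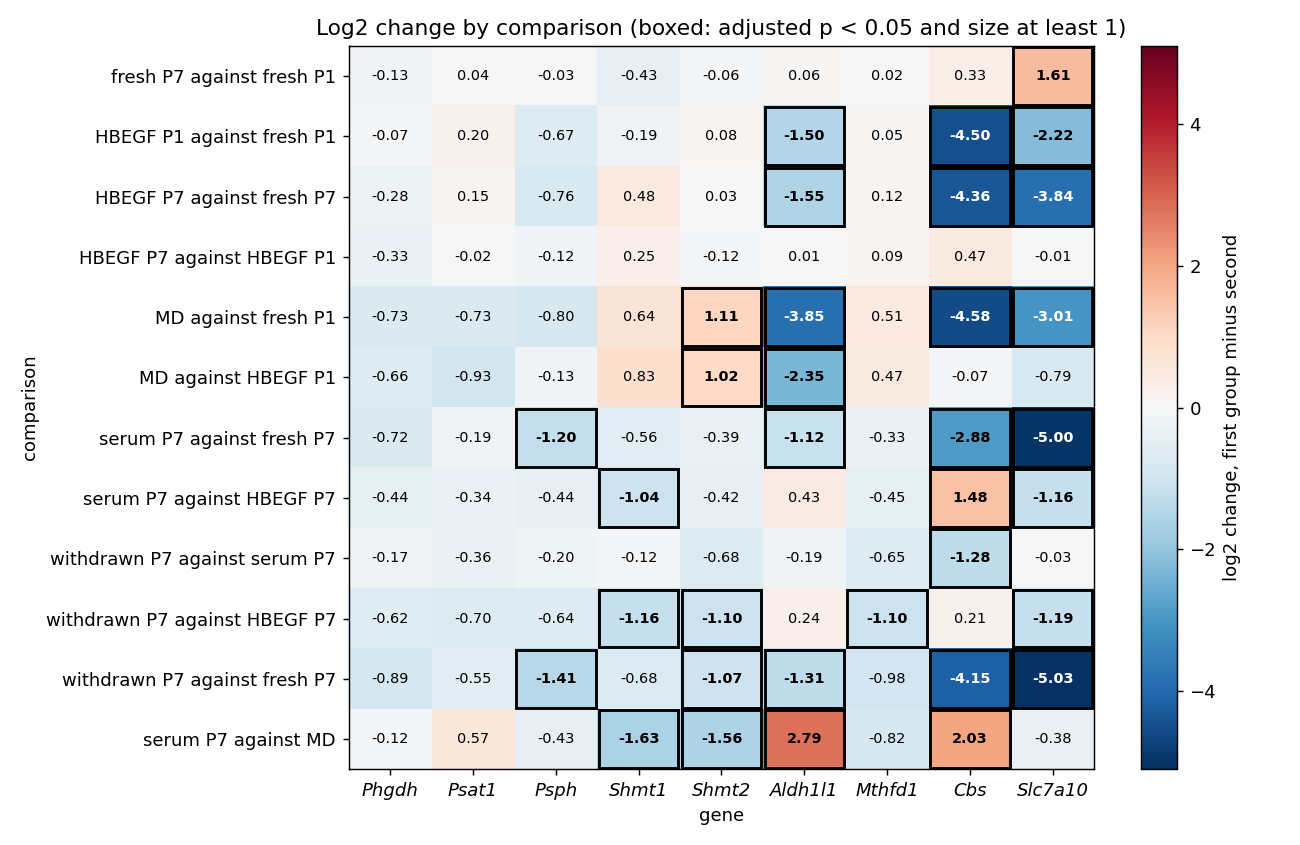
Log2 change of the 9 genes (columns) in 12 comparisons of groups (rows), first group minus second, as a colour scale with the value printed in each cell and a box around each called change. The Cbs, Slc7a10 and Aldh1l1 columns hold the large falls from fresh cells to culture, and the Phgdh and Psat1 columns hold no called change.

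Phgdh and Psat1, the enzymes of the first steps of serine synthesis, were the genes whose group means differed least, and neither was called in any comparison. The Phgdh group means ran from 13.47 ± 0.28 (SD, n = 3) in fresh P1 cells to 12.44 ± 0.60 in withdrawn cultures, a span of 2.04-fold, and 5 of the 6 neighbouring pairs of groups in that order overlapped. Psat1 ran from 13.68 ± 0.14 in HBEGF P1 cultures to 12.75 ± 0.95 in MD cultures, a span of 1.91-fold, and all 6 neighbouring pairs overlapped. Against fresh cells of their age, no Phgdh array of the MD, serum P7 or withdrawn cultures reached the fresh range. The log2 changes were -0.73 ± 0.29 (SE) in MD cultures (limma adjusted p = 0.0545), -0.72 in serum P7 cultures (limma adjusted p = 0.0598) and -0.89 in withdrawn cultures (limma adjusted p = 0.0187), all under the limit on size. The last passed that limit without withdrawn replicate 1 (-1.04) or replicate 2 (-1.09).

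Psph, the phosphatase of the last step, was lower in cultures from panned P7 cells that had seen serum. Its levels were 11.20, 11.02 and 11.08 on the fresh P7 arrays and 10.17, 10.19 and 9.33 on the serum P7 arrays. The withdrawn arrays stood at 9.96, 9.98 and 9.14. The 2 kinds of culture overlapped each other, and neither reached the fresh cells. Psph fell by 1.20 ± 0.29 (SE) on the log2 scale in serum P7 cultures against fresh P7 cells (limma adjusted p = 0.00329), and without serum replicate 3 the fall was 0.92, under the limit on size. In withdrawn cultures against fresh P7 cells the log2 change was -1.41 ± 0.29 (limma adjusted p = 0.000797). The HBEGF cultures lay between, with changes of -0.67 at P1 (limma adjusted p = 0.118) and -0.76 at P7 (limma adjusted p = 0.0664) that were not called, although no HBEGF array reached the fresh array range of its age.

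The 3 serine synthesis genes varied together within groups. In the MD cultures Psat1 stood at 11.69, 13.54 and 13.00, Phgdh at 12.06, 13.04 and 13.09, and Psph at 9.59, 10.81 and 10.59, so replicate 1 was the lowest for each. In the serum P7 cultures Psat1 stood at 13.77, 13.64 and 12.55 and in the withdrawn cultures at 13.41, 13.36 and 12.12, and there replicate 3 was the lowest, as it was for Phgdh and Psph. The mean deviation of the 3 genes from their group means was -0.82 on MD replicate 1, -0.59 on serum replicate 3 and -0.70 on withdrawn replicate 3, and between -0.14 and 0.13 on all 12 fresh and HBEGF arrays. Across the 21 arrays the deviations of Phgdh and Psat1 had a Pearson r of 0.93, those of Psat1 and Psph 0.89 and those of Phgdh and Psph 0.83, given as a description since the points share arrays. The MD results for Psat1 turned on single arrays. Its log2 change in MD cultures against fresh P1 cells was -0.73 with all arrays, -0.20 without MD replicate 1 (limma adjusted p = 0.706) and -1.13 without MD replicate 2 (limma adjusted p = 0.0398), which alone was called. Against HBEGF P1 cultures the same 3 values were -0.93, -0.41 (limma adjusted p = 0.415) and -1.33 (limma adjusted p = 0.0182). For Psph against fresh P1 cells they were -0.80, -0.43 (limma adjusted p = 0.227) and -1.04 (limma adjusted p = 0.014).

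Among 25 measured genes of the folate cycle and of the amino acid response, the pathway in which the factor ATF4 raises amino acid genes when supply is short, Asns followed these deviations most closely, with r = 0.84 over the 21 arrays. Asns makes asparagine. Its levels were 9.77, 12.12 and 11.76 on the MD arrays, 10.44, 10.68 and 9.24 on the serum P7 arrays and 9.60, 9.43 and 9.19 on the withdrawn arrays. The low array in each of these groups was the one low in Psat1. Of the other amino acid response genes, the large neutral amino acid carrier Slc7a5 had r = 0.66, Chac1 0.65 and Trib3 0.63, while Atf4 itself had 0.38 and Slc7a11 -0.05. Chac1 and Trib3 were not low on withdrawn replicate 3. There they stood at 7.66 and 7.09, the highest of their group. On MD replicate 1 they were far below the others, at 9.99 against 12.26 and 12.18 for Chac1 and 7.24 against 10.37 and 9.87 for Trib3. Ftcd, a folate enzyme of histidine breakdown, had r = -0.67.

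**Figure D3:**
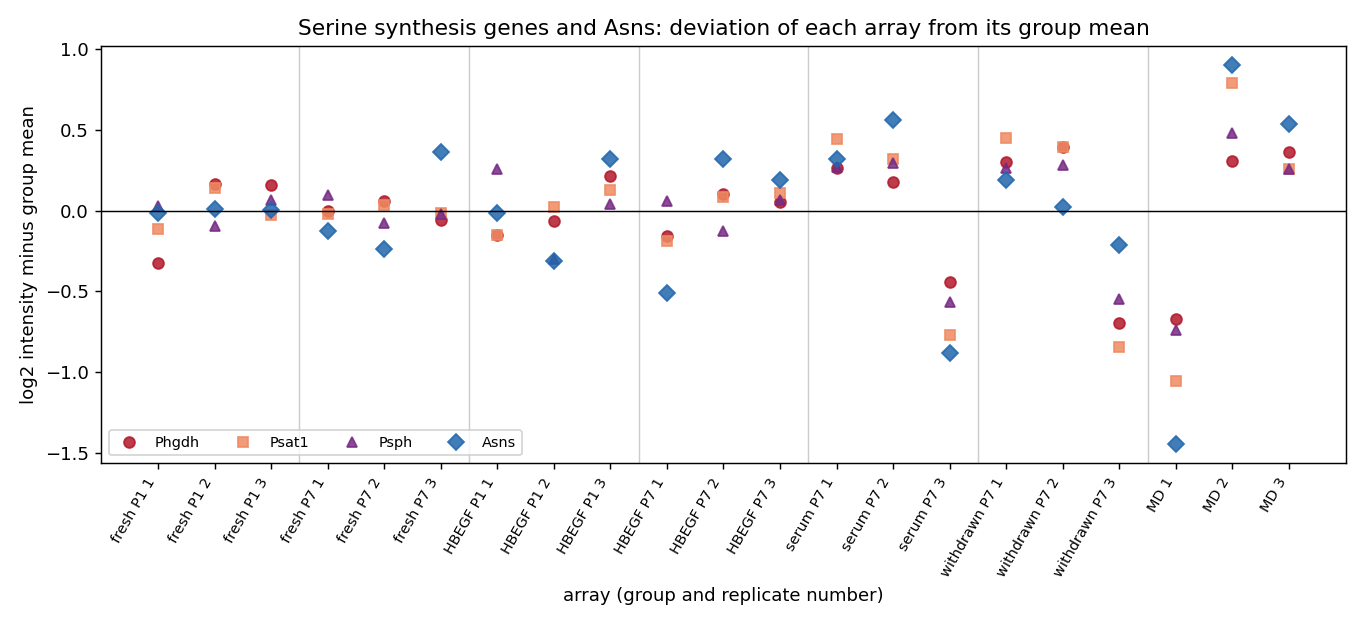
Deviation from the group mean (log2, vertical axis) of Phgdh, Psat1, Psph and Asns on each of the 21 arrays (horizontal axis, by group and replicate). MD replicate 1, serum replicate 3 and withdrawn replicate 3 lie below 0 for all 4 genes, and the 12 fresh and HBEGF arrays stay near 0 for the 3 serine synthesis genes.

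Shmt2, the mitochondrial enzyme, was highest in MD cultures and lowest in withdrawn cultures. It stood at 11.12, 12.02 and 11.55 on the MD arrays, at 10.26, 10.62 and 10.49 on the fresh P1 arrays and at 9.43, 9.34 and 9.20 on the withdrawn arrays. Every MD array was above, and every withdrawn array below, all arrays of the other 5 groups. Shmt2 rose by 1.11 ± 0.26 (SE) on the log2 scale in MD cultures against fresh P1 cells (limma adjusted p = 0.00315) and by 1.02 ± 0.26 against HBEGF P1 cultures (limma adjusted p = 0.0058). Both depended on 1 array for the limit on size: without MD replicate 2 the changes were 0.88 and 0.79, and without HBEGF P1 replicate 1 the second was 0.95. In withdrawn cultures the change was -1.07 against fresh P7 cells (limma adjusted p = 0.00363; -0.92 without fresh P7 replicate 3) and -1.10 against HBEGF P7 cultures (limma adjusted p = 0.00655; -0.81 without HBEGF P7 replicate 2). A second quantile normalization gave -0.97 for the first, under the limit on size, and a fit of the compared groups alone gave the second a limma adjusted p of 0.0603. The 4 groups of fresh and HBEGF cells had means between 10.39 and 10.54 and no comparison between them was called for Shmt2.

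Shmt1, the cytosolic enzyme, was likewise highest in MD cultures, at 9.15, 8.78 and 9.12, and lowest in withdrawn cultures, at 7.27, 7.20 and 7.35. All 6 neighbouring pairs of groups overlapped in the order of means, which spanned 3.36-fold. Fresh P7 cells stood at 7.75, 7.65 and 8.44, HBEGF P7 cultures at 8.06, 9.07 and 8.16 and serum P7 cultures at 7.77, 7.48 and 6.91. HBEGF P7 replicate 2 was the highest of these 9 arrays. Shmt1 was lower than in HBEGF P7 cultures in serum P7 cultures (-1.04 ± 0.26, SE, limma adjusted p = 0.00867) and in withdrawn cultures (-1.16 ± 0.26, limma adjusted p = 0.00408). Without HBEGF P7 replicate 2 these changes were -0.73 and -0.84, under the limit on size, and the first was -0.81 without serum replicate 3. A fit of the compared groups alone gave limma adjusted p values of 0.111 and 0.0503, and a second quantile normalization gave -0.96 for the first. The change in MD cultures against fresh P1 cells was 0.64 (limma adjusted p = 0.0615) and against HBEGF P1 cultures 0.83 (limma adjusted p = 0.0185), neither of them called.

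Shmt levels differed between the 2 preparations kept in serum. In panned P7 cells in serum against MD cultures the log2 change was -1.63 ± 0.26 (SE) for Shmt1 (limma adjusted p = 0.000183) and -1.56 ± 0.26 for Shmt2 (limma adjusted p = 0.000318), with no overlap of arrays. These groups differ in age and in panning as well as in how they were kept. The difference of responses, serum P7 against HBEGF P7 cultures minus MD against HBEGF P1 cultures, was tested too. MD and HBEGF P1 cultures differ in panning as well as in serum, so their difference is not a response to serum alone. Of the 9 genes, 2 were called with a positive difference (5.02% of all genes) and 2 with a negative one (6.29%). The negative ones were Shmt1 (-1.88 ± 0.37, limma adjusted p = 0.0027) and Shmt2 (-1.44 ± 0.37, limma adjusted p = 0.0161, or 0.0665 with only these groups fitted). In some of these comparisons the proliferation genes moved the same way: 15 of 17 rose in MD against HBEGF P1 cultures (8.81% of all genes), 12 of 17 fell in serum P7 cultures against MD cultures (6.37%), and 15 of 17 fell in withdrawn against HBEGF P7 cultures (5.42%). In others they did not. In serum P7 against HBEGF P7 cultures, where Shmt1 was called, limma called 0 of the 17 (2 at an unadjusted p under 0.05), with a median log2 change of -0.23. In HBEGF P1 cultures against fresh P1 cells 8 of 17 fell (4.49%), and neither Shmt gene was called. In withdrawn against serum P7 cultures 13 of 17 fell (2.26%), and again neither was called. There the Shmt2 change was -0.68 (limma adjusted p = 0.143) with no overlap of arrays, and the Shmt1 change was -0.12 with overlap. The part of the proliferation genes in the Shmt results was not tested.

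Mthfd1, the cytosolic enzyme that interconverts folate forms, was also highest in MD cultures and lowest in withdrawn cultures, a span of 2.78-fold. It stood at 11.94, 11.90 and 11.80 in MD cultures, and at 10.55, 10.56 and 10.11 in withdrawn cultures. Serum P7 cultures stood at 11.21, 11.19 and 10.78, and the fresh and HBEGF groups had means from 11.37 to 11.51. No MD array overlapped any array of another group, nor did any withdrawn array. Mthfd1 fell by 1.10 ± 0.14 (SE) on the log2 scale in withdrawn against HBEGF P7 cultures (limma adjusted p = 5.56e-05), and without withdrawn replicate 3 the change was -0.95. The other Mthfd1 changes stayed under the limit on size, and 7 of them had an adjusted p under 0.05. In withdrawn cultures they were -0.65 against serum P7 cultures (limma adjusted p = 0.00853) and -0.98 against fresh P7 cells (limma adjusted p = 2.51e-05). In MD cultures they were 0.51 against fresh P1 cells (limma adjusted p = 0.00765) and 0.47 against HBEGF P1 cultures (limma adjusted p = 0.0143). In serum P7 cultures they were -0.82 against MD cultures (limma adjusted p = 0.000311) and -0.45 against HBEGF P7 cultures (limma adjusted p = 0.0301). The last was the difference of responses defined above, at -0.91 (limma adjusted p = 0.00512). The change of withdrawn cultures against fresh P7 cells passed the limit in 4 of the 6 fits that left out 1 array of the compared groups, with values from -1.02 to -1.06 (without fresh P7 replicate 1 or 2 or withdrawn replicate 1 or 2).

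Aldh1l1 fell in every culture and most in the MD cultures. The fresh P1 arrays stood at 12.52, 12.65 and 12.32 and the fresh P7 arrays at 12.38, 12.53 and 12.76. The 12 arrays of panned cells in culture lay between 10.42 and 11.80, and the MD arrays at 8.43, 8.84 and 8.67. The 3 ranges did not overlap. The log2 change from fresh cells was -1.5 ± 0.25 (SE) in HBEGF P1 cultures (limma adjusted p = 0.000312), -1.55 in HBEGF P7 cultures (limma adjusted p = 0.000194), -1.12 in serum P7 cultures (limma adjusted p = 0.00172) and -1.31 in withdrawn cultures (limma adjusted p = 0.000384). Without serum replicate 2 the change in serum P7 cultures was -0.98, under the limit on size. No difference in Aldh1l1 between the panned P7 cultures was called; the changes were 0.43 for serum against HBEGF (limma adjusted p = 0.235) and -0.19 for withdrawn against serum (limma adjusted p = 0.774).

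In MD cultures Aldh1l1 had a log2 change of -3.85 ± 0.25 (SE) against fresh P1 cells, a fold of 14.4 (limma adjusted p = 4.04e-09), and of -2.35 against HBEGF P1 cultures, a fold of 5.1 (limma adjusted p = 1.29e-06). Serum P7 cultures held 6.93 times the MD level (log2 change 2.79, limma adjusted p = 7.37e-07). The difference of responses, in which MD and HBEGF P1 cultures differ in panning as well as serum, was 2.78 ± 0.35 (limma adjusted p = 0.000113). It equals the serum P7 against MD change minus the HBEGF P7 against HBEGF P1 change of 0.01, so it restates the first of these. Of the 14 astrocyte markers, 8 fell in MD cultures against fresh P1 cells (9.43% of all genes) and 6 fell against HBEGF P1 cultures (9.57%), and none of them rose. In serum P7 against MD cultures 6 of the 14 rose (7.58%) and 0 fell. The difference of responses was called with a positive sign for 5 of the 14 (5.02%) and with a negative sign for 0. Against fresh P7 cells 4 of the 14 fell in HBEGF P7 cultures (5.51%), 5 in serum P7 cultures (9.04%) and 7 in withdrawn cultures (11.1%). In HBEGF P1 cultures against fresh P1 cells, where Aldh1l1 also fell, 4 rose (4.38%) and 2 fell (4.49%), with a median log2 change of 0.32. Their part in the Aldh1l1 changes was not tested.

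Cbs, which joins serine and homocysteine, had the largest fall of the 9 genes from fresh cells to HBEGF culture. Its levels were 12.08, 11.85 and 12.07 in fresh P1 cells and 12.30, 12.30 and 12.39 in fresh P7 cells. In HBEGF P1 cultures they were 6.93, 7.68 and 7.88, in HBEGF P7 cultures 8.36, 7.50 and 8.05, and in MD cultures 7.51, 7.60 and 7.16. All 9 of these culture arrays were below every fresh array by more than 3 log2 units, and neighbouring groups among them overlapped. The log2 change from fresh cells was -4.50 ± 0.25 (SE) at P1, 22.7-fold (limma adjusted p = 1.6e-09), -4.36 at P7, 20.5-fold (limma adjusted p = 1.96e-09), and -4.58 in MD cultures, 23.9-fold (limma adjusted p = 5.32e-10). Between MD and HBEGF P1 cultures the log2 change was -0.07 (limma adjusted p = 0.84). The HBEGF P1 and MD means, 7.50 and 7.42, lay close to 7.11, the median of all values on the arrays. A level there may be close to that of a dim probe set. The falls may therefore be understated, and a difference between these groups may be missed.

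Among the panned P7 cultures, Cbs was higher in serum P7 cultures than in HBEGF P7 or withdrawn cultures. Withdrawn cultures had also spent 7 more days in the dish. The serum P7 arrays stood at 9.47, 9.63 and 9.26 and the withdrawn arrays at 8.22, 8.56 and 7.75. No serum array overlapped the withdrawn or the HBEGF P7 arrays, while the withdrawn and HBEGF P7 arrays overlapped each other. Cbs rose by 1.48 ± 0.25 (SE) log2 units in serum P7 against HBEGF P7 cultures, a fold of 2.80 (limma adjusted p = 0.000477), and fell by 1.28 ± 0.25 in withdrawn against serum P7 cultures, a fold of 2.42 (limma adjusted p = 0.0048). Withdrawn cultures differed from HBEGF P7 cultures by 0.21 (limma adjusted p = 0.572). In serum P7 cultures Cbs was still below fresh P7 cells, with a log2 change of -2.88, a fold of 7.35 (limma adjusted p = 1.26e-07). They lay above MD cultures by 2.03 (limma adjusted p = 1.52e-05). The difference of responses, in which MD and HBEGF P1 cultures differ in panning as well as serum, was 1.56 ± 0.35 (limma adjusted p = 0.00645).

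Other cell type markers changed in these Cbs comparisons. Of the 13 fibroblast and meningeal markers, 7 rose in serum P7 against HBEGF P7 cultures (4.83% of all genes). After withdrawal 1 of the 13 fell against serum P7 cultures (2.26%) while the other 12 were not called. Against fresh P7 cells 9 of the 13 rose in serum P7 cultures (9.12%). In serum P7 against MD cultures 10 of the 13 rose (7.58%), as did 6 of the 14 astrocyte markers. In the difference of responses 6 of the 13 had a positive call (5.02%), as did 5 of the 14 astrocyte markers. The astrocyte markers went the other way among the panned P7 cultures. In serum P7 against HBEGF P7 cultures 3 of the 14 fell (4.47%) and 0 rose. After withdrawal 3 rose against serum P7 cultures (2.24%) and 1 fell (2.26%). Of the 14 microglia and macrophage markers, 7 rose in withdrawn against serum P7 cultures (2.24%). There 3 of 9 endothelial markers rose too, and 1 of 8 mural markers fell (2.26%). In serum P7 against HBEGF P7 cultures 3 of the 8 mural and 2 of the 9 endothelial markers rose (4.83%). The part of these markers in the Cbs changes was not tested.

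Slc7a10, the serine and glycine carrier, was the only member called between the ages of fresh cells, and had the largest fall of the 9 in the serum P7 cultures. Its levels were 10.02, 10.09 and 10.68 in fresh P1 cells and 11.76, 12.04 and 11.81 in fresh P7 cells, which did not overlap. The rise of 1.61 ± 0.23 (SE) log2 units is a fold of 3.05 (limma adjusted p = 0.000918). Astrocyte markers rose with age too: 5 of 14 rose (1.37% of all genes), the median log2 change was 0.78, and the list mean went from 11.69 in fresh P1 to 12.87 in fresh P7 cells. Of 14 neuron markers, 2 fell (0.183%). Of 14 microglia and macrophage markers, 2 rose (1.37%), with a median log2 change of 1.20. Their array means were 5.75 to 6.06 in fresh P1 and 6.45 to 7.39 in fresh P7 cells. Of 9 endothelial markers, 1 fell (0.183%). Of 13 fibroblast and meningeal markers, 0 were called, with a median of 0.88. The part of these changes in the Slc7a10 rise was not tested. In the other 8 genes the change between the ages was from -0.43 to 0.33 (limma adjusted p from 0.426 to 0.975). HBEGF P1 cultures stood at 8.04, 7.95 and 8.14 and HBEGF P7 cultures at 8.11, 8.63 and 7.36, so the age difference was not seen after culture (log2 change -0.01, limma adjusted p = 0.998). The log2 change on culture was -2.22 ± 0.23 at P1 (limma adjusted p = 3.92e-06) and -3.84 ± 0.23 at P7 (limma adjusted p = 4.11e-09).

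The difference between those falls was tested and was called in 1 of the 9 genes, with a negative sign (0.654% of all genes). It was -1.62 ± 0.33 (SE) for Slc7a10 (limma adjusted p = 0.0282, or 0.13 with only these 4 groups fitted). The same value is the age change in HBEGF cultures (-0.01) minus the age change in fresh cells (1.61). It therefore restates the rise with age in fresh cells and is not a separate result. Of the 12 fits that left out 1 array of these 4 groups, 7 put the adjusted p above the limit, from 0.0516 to 0.0905, with log2 differences from -1.49 to -1.66. The arrays were fresh P1 replicates 1 and 2, fresh P7 replicates 2 and 3 and HBEGF P1 replicates 1, 2 and 3.

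Serum P7 cultures stood at 6.86, 7.01 and 6.75 and withdrawn cultures at 6.94, 6.66 and 6.92 for Slc7a10, with log2 changes against fresh P7 cells of -5.00 ± 0.23 (SE), a fold of 31.9 (limma adjusted p = 1.14e-10), and -5.03, a fold of 32.7 (limma adjusted p = 8.24e-11). Both groups lay below 7.11, the median of all values on the arrays, where a level may be close to that of a dim probe set, so the folds may understate the fall. Between the withdrawn and the serum state, where Cbs fell, the Slc7a10 arrays overlapped and the log2 change was -0.03 (limma adjusted p = 0.97). Against HBEGF P7 cultures the changes were -1.16 in serum (limma adjusted p = 0.00192) and -1.19 after withdrawal (limma adjusted p = 0.00156). Without HBEGF P7 replicate 2, the highest of that group, they were -0.87 and -0.90, under the limit on size, and a fit of the compared groups alone gave limma adjusted p values of 0.0732 and 0.0635. MD cultures stood at 7.23, 7.39 and 7.13, with log2 changes of -3.01 ± 0.23 against fresh P1 cells (limma adjusted p = 3.25e-08) and -0.79 against HBEGF P1 cultures (limma adjusted p = 0.0129), which was not called.

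The wider folate cycle was described with a list of 17 further genes, 15 of them measured. In MD cultures against fresh P1 cells 6 of the 15 rose (10.1% of all genes) and 0 fell, with a median log2 change of 0.65 against 0.11 over all genes. Mthfd1l, the mitochondrial formate producer, went from 5.73 ± 0.08 (SD, n = 3) to 9.46 ± 0.27, a log2 change of 3.73 ± 0.31 (SE, limma adjusted p = 7.82e-08). Tyms, which makes thymidylate, rose by 2.08, and the mitochondrial folate enzymes Mthfd2 and Mthfd2l rose by 1.77 and 1.52. Tyms is also on the proliferation list. The fresh P1 levels of Mthfd1l and Tyms (6.77 ± 0.19) lay below 7.11, the median of all values, so their changes may be understated. Against HBEGF P1 cultures 4 of the 15 rose in MD cultures (8.81%): Mthfd1l (2.84), Mthfd2 (2.45), Tyms (2.03) and Mthfd2l (1.35). These are the 4 that were lower in serum P7 than in MD cultures (6.37%), by changes of -2.88 for Mthfd2l, -2.55 for Mthfd1l, -2.0 for Mthfd2 and -1.20 for Tyms. In HBEGF P7 cultures against fresh P7 cells 4 rose (4.78%) and 0 fell.

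Serum withdrawal split the folate list, with 2 of 15 higher (2.24% of all genes) and 3 lower (2.26%) than in serum P7 cultures and a median of -0.16. Mthfd2 fell by 1.95 ± 0.45 (SE, limma adjusted p = 0.0149), Aldh1l2, the mitochondrial relative of Aldh1l1, by 1.47 and Tyms by 1.46. The folate receptor gene Folr1 rose by 3.25 ± 0.70 (limma adjusted p = 0.00905), from 7.51 ± 0.06 (SD, n = 3) to 10.77 ± 0.97. Against HBEGF P7 cultures Mthfd2 (-1.95), Mthfd2l (-1.63) and Tyms (-1.27) were lower and Ftcd (1.68) higher. The glycine cleavage system, which breaks glycine down in mitochondria, had 4 of 4 genes measured. Its decarboxylase Gldc fell by 1.85 ± 0.28 in MD cultures against fresh P1 cells (limma adjusted p = 5.85e-05). Gldc (-1.49) and Amt (-1.11) fell against HBEGF P1 cultures, so Gldc fell where Shmt2 rose. Gcsh of the same list went with Shmt2. Its mean was highest in MD cultures, at 12.73 ± 0.15 (SD, n = 3). It was 12.57 ± 0.11 in HBEGF P7 and 11.45 ± 0.31 in withdrawn cultures, where Shmt2 was lower too.

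**Figure D4:**
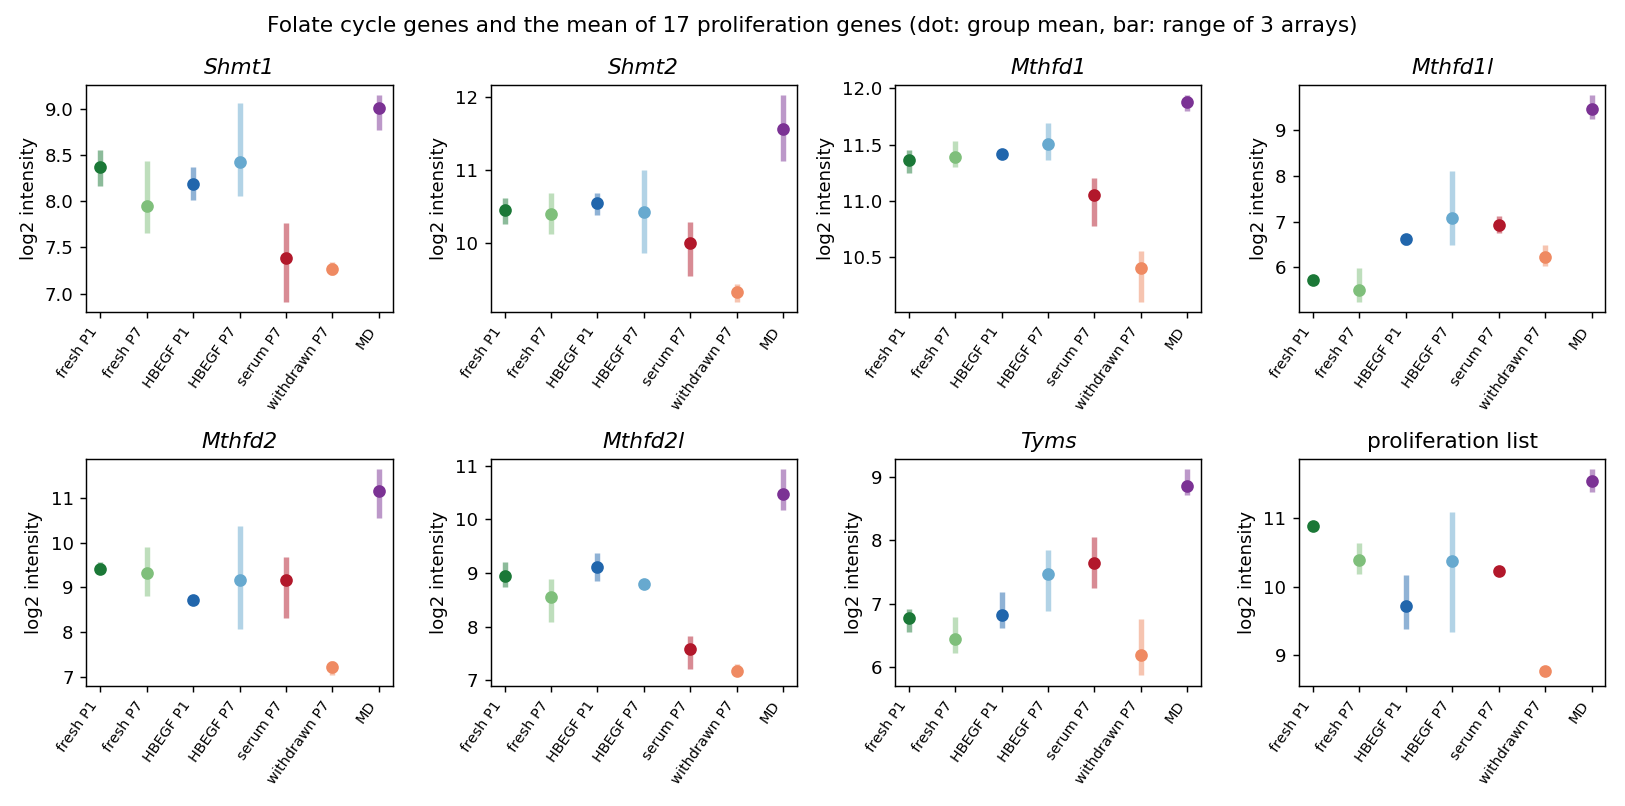
Log2 intensity (vertical axis) of 7 folate genes, and the mean of the 17 proliferation genes, in the 7 groups (horizontal axis), with a dot at the group mean and a bar over the range of the 3 arrays. The MD mean is the highest in each panel, and the withdrawn mean is the lowest except for Mthfd1l, which was lowest in fresh P7 cells. Some measured folate genes that are not shown had another order. Mthfs was lowest in MD (8.44) and highest in withdrawn cultures (9.34). Folr1 (10.77) and Ftcd (7.66) were highest in withdrawn cultures, Aldh1l2 in serum P7 cultures (9.02) and Ggh in fresh P7 cells (12.35).

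Around Cbs, the methionine cycle and transsulfuration list had 17 of 17 genes measured. Cth, which cleaves the cystathionine that Cbs makes, fell with Cbs in HBEGF culture, by 1.70 ± 0.37 (SE) log2 units at P1 (limma adjusted p = 0.00306) and by 2.29 at P7 (limma adjusted p = 0.000218). Its level went from 11.09 ± 0.25 (SD, n = 3) in fresh P7 cells to 8.80 ± 0.33 in HBEGF P7 cultures. In MD cultures the calls parted: Cth was 1.42 log2 units higher than in HBEGF P1 cultures (limma adjusted p = 0.00575), and the Cbs change was not called. The MD arrays for Cth ranged from 9.64 to 11.36, and the Cbs levels of both groups lay close to the median of all values. Against fresh P7 cells the Cth log2 change was -1.71 in serum P7 and -2.48 in withdrawn cultures. Gclc, a subunit of the enzyme that starts glutathione synthesis, rose by 1.37 in HBEGF P1 and 1.59 in HBEGF P7 cultures against fresh cells. Cdo1 and Csad, enzymes of taurine synthesis from cysteine, had log2 changes of -2.64 and -1.98 in MD cultures against fresh P1 cells, while Gss, of glutathione synthesis, rose by 1.6. Over the 17 genes, MD cultures had 3 higher (10.1% of all genes) and 3 lower (9.43%) than fresh P1 cells. HBEGF P1 cultures had 3 higher (4.38%) and 1 lower (4.49%), and HBEGF P7 cultures 1 higher (4.78%) and 1 lower (5.51%); for HBEGF P7 these are near the shares of all genes.

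Of 12 measured carriers and serine-handling genes, out of 13 listed beside Slc7a10, some fell with it and others rose. Slc1a4, an exchanger of serine and other neutral amino acids, had log2 changes of -1.04 ± 0.32 (SE) in HBEGF P1 cultures (limma adjusted p = 0.0307), -2.02 in HBEGF P7 cultures, -2.85 in serum P7 cultures and -3.41 in withdrawn cultures, all called, each against fresh cells of its age. Slc6a9, the glycine transporter GlyT1, had log2 changes of -3.27 ± 0.39 in serum P7 cultures against fresh P7 cells (limma adjusted p = 5.13e-06) and -2.75 in MD cultures against fresh P1 cells. The neutral amino acid carrier Slc38a1 rose by 1.73 and 2.07 in HBEGF culture at P1 and P7 and by 1.80 in serum P7 cultures. Slc1a5, another exchanger of neutral amino acids, rose by 1.63 in HBEGF P7, 1.49 in serum P7 and 2.90 in withdrawn cultures against fresh P7 cells. The list's median stayed between -0.16 and 0.26 in all comparisons.

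Of the amino acid response list, 10 of 13 genes were measured. Asns rose by 1.56 ± 0.46 (SE) in HBEGF P1 cultures (limma adjusted p = 0.0232), by 1.87 in HBEGF P7 cultures and by 2.51 in MD cultures, each against fresh cells. Trib3, a target of ATF4 that feeds back on it, rose by 2.75 in MD cultures against fresh P1 cells. The MD arrays for Trib3 differed widely, at 7.24, 10.37 and 9.87. The fresh P1 arrays, at 6.23, 6.58 and 6.41, lay below the median of all values. Atf4 itself had log2 changes of -1.10 in HBEGF P1, -1.17 in HBEGF P7 and -1.54 in serum P7 cultures against fresh cells, all called. Nupr1, also on the list, had means of 7.02 ± 0.55 (SD, n = 3) in fresh P7 cells and 10.76 ± 1.87 in HBEGF P7 cultures. Its means were 11.41 ± 0.72 in serum P7 and 13.78 ± 0.13 in withdrawn cultures. Cebpb went from 11.87 ± 0.30 in fresh P1 cells to 9.93 ± 0.30 in HBEGF P1 cultures. Of the 10 genes, 2 rose (4.38% of all genes) and 2 fell (4.49%) in HBEGF P1 cultures, and 2 rose (4.78%) and 4 fell (5.51%) in HBEGF P7 cultures. In serum P7 cultures 2 rose (9.12%) and 4 fell (9.04%). In withdrawn cultures 1 rose (11.1%), near the share of all genes, and 5 fell (11.1%). In MD cultures 2 rose (10.1%) and 1 fell (9.43%), the last near the share of all genes.

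Likeness was measured as Pearson's r of log2 levels over the 21 arrays with 9736 other genes whose mean level was at least 7, for the 5 members whose group means spanned at least 1.5 log2 units. It is a description, since the arrays fall into 7 groups. The genes most like Cbs were Cpne6 (r = 0.966), Sh3rf1 (0.960) and Grm3 (0.956), and those most like Slc7a10 were Pip4p1 (0.970), Rlf (0.969) and Kcnd2 (0.965). For Aldh1l1 they were Dhtkd1 (0.972), Aldh4a1 (0.961) and Pnrc1 (0.955). Shmt2 was nearest to Kpna3 (0.960), Yars1 (0.955) and Tcp1 (0.948), and Shmt1 to Thoc3 (0.941), Ppie (0.939) and Saal1 (0.933). None of these 15 genes was shared between 2 members.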

How the data were processed

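RNA from 7 groups of 3 rat astrocyte samples was measured on 21 arrays. The deposited values were linear intensities per probe set, made by the authors with RMA per the submitters' processing notes; which software ran it, and with which chip definition, is not given in the sources used here. RMA already sets the arrays to a common distribution, which can shrink a shift of most genes. Log2 was taken here, with no filter on dim probe sets. Of 31042 probe sets, 20826 carried 1 gene symbol, 436 several and 9780 none; a gene was counted through its probe set of highest mean. Groups were compared with limma 3.58.1 in R 4.3.3 (lmFit, contrasts.fit, eBayes; 14 residual and 2.89 prior degrees of freedom), with Benjamini-Hochberg adjustment over all probe sets in each of 14 comparisons. The fitting code was tested on simulated data. The number of arrays limits precision: 3 against 3 cannot give an exact permutation p under 0.1. The files and labels used here name no scan date or batch, so none was tested.

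The 9 genes, the 14 gene lists (172 entries, 161 measured) and the alternatives were chosen with earlier results of these data known. Pathway genes were named where they were among the 4 called members of a list with the largest change in a described comparison; likeness named the 3 genes of highest r; Atf4, Slc7a11, Slc7a5, Ftcd, Chac1 and Trib3 were also named after their values were seen. The alternatives were a renewed quantile normalization, a filter on dim probe sets, the mean of a gene's probe sets, a fit of the compared groups alone, no limit on size, a replicate block, and leaving out each array. The authors' RT-PCR for contamination was not used here.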

Additional observations from a re-analysis of the deposited data

Results flagged for a closer look

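6 differences between responses passed their own test, each from the limma model of all groups with the adjusted p over all probe sets. The fall of Slc7a10 in HBEGF culture was greater at P7 than at P1 by a log2 difference of -1.62 (limma adjusted p = 0.0282), and this call was lost without any 1 of 7 of the 12 arrays. By its make-up it restates the Slc7a10 rise of 1.61 between fresh P1 and fresh P7 cells, since the HBEGF cultures differed by -0.01. The other 5 compare serum against HBEGF in panned P7 cells with MD against HBEGF P1 cultures. The differences were 2.78 for Aldh1l1 (limma adjusted p = 0.000113), 1.56 for Cbs (limma adjusted p = 0.00645), -1.88 for Shmt1 (limma adjusted p = 0.0027), -1.44 for Shmt2 (limma adjusted p = 0.0161) and -0.91 for Mthfd1 (limma adjusted p = 0.00512), the last under the limit on size. Each of these 5 equals the serum P7 against MD change minus the HBEGF P7 against HBEGF P1 change. For Aldh1l1 those were 2.79 and 0.01, so its difference restates the serum P7 against MD change. Age, panning and medium differ between the preparations, and their parts cannot be told apart.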

How the results depend on the processing

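Of 126 results (9 genes in 14 comparisons), 39 were called. All 39 were called again with the replicate block, which changed no call, and with the filter on dim probe sets; 37 were called after a second quantile normalization and 32 when only the compared groups were fitted. The main model did not pair same-numbered samples. Deviations were correlated above 0.1 in 30 of 63 same-number pairs and in 13 of 126 other pairs (median r = 0.06 and -0.02). Of the 21 arrays, 18 were closest to one of their own number. Arrays of the same number thus tended to deviate together, which is a hint from the data and not the design. The replicate block is the fit that allows for it.

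With no limit on size, the called members went from 2 to 5 in MD against HBEGF P1 cultures (18.4% to 42.3% of all genes, in either direction), from 1 to 2 in withdrawn against serum P7 cultures (4.5% to 9.97%) and from 5 to 8 in withdrawn cultures against fresh P7 cells (22.1% to 49.9%). With only the compared groups fitted (fewer samples), they went from 3 to 1 in serum P7 against HBEGF P7 cultures (9.3% to 5.36% of all genes), from 4 to 1 in withdrawn against HBEGF P7 cultures (11.7% to 6.3%), and from 1 to 0 in the difference of culture responses (0.816% to 0.408%). With 1 array left out, the called members ranged from 1 to 2 in MD against HBEGF P1 cultures (17.4% to 18.8% of all genes), 1 to 3 in serum P7 against HBEGF P7 cultures (8.27% to 10.8%), 1 to 4 in withdrawn against HBEGF P7 cultures (8.93% to 13.9%), 4 to 7 in withdrawn cultures against fresh P7 cells (20.9% to 22.5%), and 0 to 1 in the difference of culture responses (0.352% to 2.41%). Over 264 fits of called results with an array left out, 20 lost the call and 0 changed sign; 62 of 600 such fits of results that were not called changed sign.

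Cbs in MD against HBEGF P1 cultures turned from -0.07 to 0.0534 after the second quantile normalization. Leaving out the 3 arrays low in serine synthesis genes was chosen after seeing the data and kept 28 of 31 calls. It turned Psph in MD against HBEGF P1 cultures to 0.24, Psat1 in serum P7 cultures to 0.19 against fresh P7 cells and 0.0451 against HBEGF P7 cultures, and Aldh1l1 in withdrawn against serum P7 cultures to 0.0308; none of these was called. The cause was not tested.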
